A study of Mus musculus with 2 samples.

Results

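The AP-1, EGR and IER immediate early genes were followed in X63/0 (X63-Ag8.653), a plasmacytoma line of the mouse, as 10 genes picked by symbol from the 43346 features of the deposited gene table: Jun, Junb, Jund, Fos, Fosb, Fosl1, Fosl2, Egr1, Ier2 and Ier5. All 10 were found in the table. The untreated group was X63/0 cells without cycloleucine, and the other group was X63/0 cells held for 3 h in 30 mM cycloleucine, an amino acid analogue that blocks the making of S-adenosylmethionine, the cell's methyl donor. Both groups share the cell line and the medium with fetal bovine serum and 2-mercaptoethanol, and rRNA-depleted total RNA was sequenced. The series' text speaks of a triplicate experiment, while 1 library per group was analysed here, so the differences below could not be checked against replicates and carry no p-values. The sources used here do not give whether the untreated cells received plain medium in place of the cycloleucine stock.

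Immediate early genes are transcribed within minutes of a stimulus from factors already present in the cell, and their mRNAs are usually short-lived. JUN and FOS proteins are basic leucine zipper factors that pair into the AP-1 dimer. JUN proteins can pair with themselves, while FOS proteins need a JUN-type partner. EGR1 is a zinc finger factor of the same early wave, and IER2 and IER5 are small regulatory proteins of that wave. In plasma cells and B cells these genes are known as readouts of receptor and stress signalling through MAP kinases.

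The untreated library held 27127865 gene reads and the cycloleucine library 31951946. Of the plasma cell markers, 10 were found among the features and 9 were measured, with a summed level of 1002 RPKM in the untreated against 1008 RPKM in the cycloleucine library, and Cd38 was at 4 and 2 exon reads. RPKM is exon reads scaled by the exon length in kilobases and by the gene reads of the library. Of 8 B cell markers 2 were measured, Cd79b and Ms4a1, with 53.8 and 56.0 RPKM over the list. T and natural killer cell markers summed to 0.419 and 0.554 RPKM with none of 8 measured, and Cd3d, Nkg7 and Klrb1c were at 0 exon reads in both. Myeloid markers summed to 1.95 and 2.03 RPKM, with Cd68 alone measured of 8 and Emr1, S100a8 and S100a9 at 0 exon reads in both, and fibroblast markers summed to 0.409 and 0.342 RPKM with none of 7 measured. In a bulk library, fewer cells with an RNA and less of that RNA per cell cannot be told apart.

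The line expressed 6 of the 10 genes, where expressed, or measured, means at least 50 exon reads over both libraries and, in either of them, at least 1 RPKM: Jund, Junb, Jun, Ier5, Ier2 and Fosl2. The other 4, Fos, Fosb, Fosl1 and Egr1, lay below that bound in both libraries. In the untreated library the order per length was Jund, Junb, Ier5, Jun, Ier2 and Fosl2, and it was the same in the cycloleucine library. The counting intervals of Ier5 (14.2 to 15.8 RPKM) and Jun (13.5 to 15.2 RPKM) overlapped in the untreated library, as did those of Ier2 (2.28 to 3.32 RPKM) and Fosl2 (2.28 to 2.78 RPKM). In the cycloleucine library neither pair overlapped, with 17.6 to 19.3 against 14.9 to 16.4 RPKM for Ier5 and Jun, and 2.72 to 3.75 against 1.91 to 2.34 RPKM for Ier2 and Fosl2. These are 95% exact Poisson intervals and, like all intervals here, they cover counting error only.

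**Figure D1:**
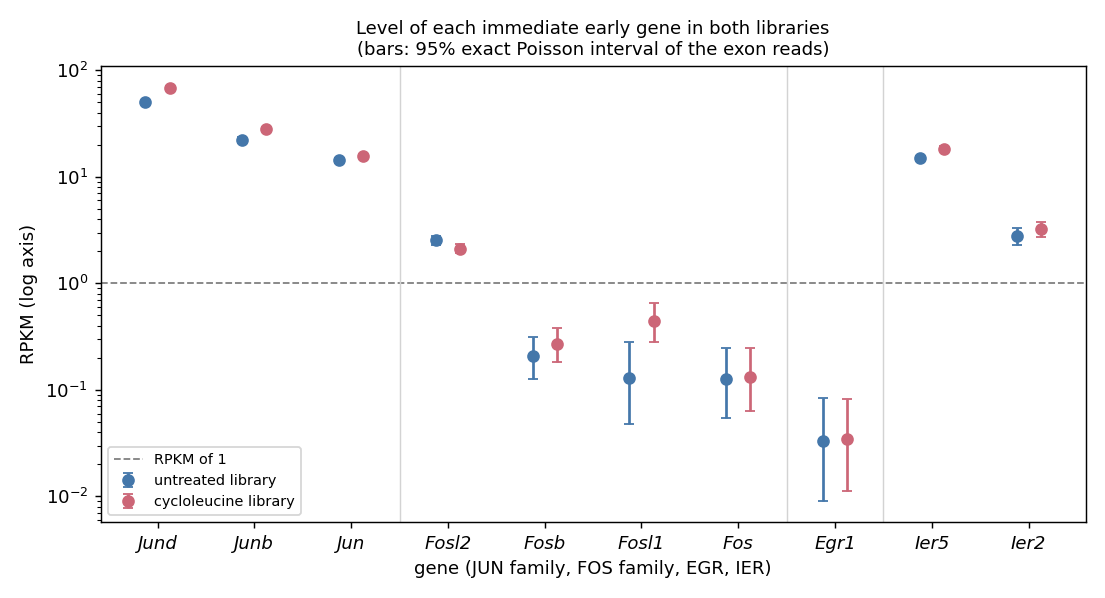
Level of the 10 genes in RPKM on a log axis, one point per library, with 95% exact Poisson intervals of the exon reads and a dashed line at an RPKM of 1. The JUN family, Ier5, Ier2 and Fosl2 lie above the line in both libraries, and Fosb, Fosl1, Fos and Egr1 below it in both.

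In the cycloleucine library 5 of the 6 expressed genes were above and 1 was below the untreated level. None of the 6 reached 1.5-fold in either direction. Over all 9101 measured features, 2.16% were at least 1.5-fold higher, 1.88% at least 1.5-fold lower, 0.374% at least 2-fold higher, 0.44% at least 2-fold lower and 50.6% above 0. The counting interval of the ratio lay wholly above 1 for 4 of the 6 genes (Jund, Junb, Ier5 and Jun), as it did for 22.5% of measured features, and wholly below 1 for 1 gene, Fosl2, as for 21.1%. The median log2 fold change of the 6 was 0.25, beside 0.0022 over all measured features. The log2 fold change is computed with 0.1 added to each RPKM, which understates the change of low genes, and ratios in brackets below are plain RPKM ratios.

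The 10 housekeeping controls had a median log2 fold change of 0.17, with 8 above and 2 below 0, so they too lay above the median of all features. Actb had 405 RPKM in the untreated against 514 RPKM in the cycloleucine library, a ratio of 1.27, and Gapdh a ratio of 1.23, while Ppia was at 0.964 and Ywhaz at 0.972. The ratios of Junb (1.27), Ier5 (1.23), Ier2 (1.16) and Jun (1.09) lay within the range of these controls, which ended at 1.30 for Hprt. That of Jund was 1.37. From uniquely placed reads, scaled by unique gene reads, it was 1.31. The control ratios are from all exon reads, so the 1.31 is not on their scale. The Hprt ratio rested on 60 and 92 exon reads, and its interval of 0.930 to 1.83 includes both Jund values. Few reads of Gapdh, Ppia and Pgk1 were uniquely placed, 10.5%, 5.81% and 4.21% in the untreated library. The share was 24.7% for B2m and 52.6% for Ywhaz. What moved the controls, and its part in the values of the JUN and IER genes, was not tested.

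The JUN family gave most of the AP-1 message. Summed over Jun, Junb and Jund, its level was 86.8 RPKM in the untreated against 113 RPKM in the cycloleucine library, against 2.99 and 2.96 RPKM for the 4 FOS family genes. Per length, JUN family RNA was thus 96.7% of the summed level of these 7 genes in the untreated against 97.4% in the cycloleucine library. All 3 JUN genes are intronless and each was a single exon in the table, so they gave no intron and no exon-exon junction reads.

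Jund encodes JunD, the JUN protein known for steady expression in resting cells. It lies on the plus strand of chromosome 8, at 70697739 to 70700616 in mm10. It had 3919 exon reads and 50.2 RPKM in the untreated library and 6325 reads and 68.8 RPKM in the cycloleucine library. Its ratio of 1.37 (1.32 to 1.43), a log2 fold change of 0.45, was the highest of the 6 expressed genes, and 4.20% of measured features had a larger log2 fold change. Jund alone was 55.9% of the summed AP-1 level in the untreated against 59.5% in the cycloleucine library. From uniquely placed reads its share was lower, 45.2% and 47.0%.

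Many Jund reads had more than 1 possible place. Uniquely placed reads were 57.6% of its exon reads in the untreated against 53.9% in the cycloleucine library, and from unique reads alone, scaled by unique gene reads, its ratio was 1.31 (1.24 to 1.38). In GENCODE M21, the antisense gene Gm11175 covers 919 bases of Jund on the minus strand, and 48.3% of the 50-base words of the Jund transcript also occur in it, as read on either strand. In the deposited models the overlap was 543 bases. The overlapping bases are the same place in the genome, read on opposite strands. What gave Jund reads more than 1 possible place was not tested. Gm11175 itself was given 5 reads in the untreated against 3 in the cycloleucine library. The sources used here do not give whether counting used the strand, so Jund and antisense reads cannot be told apart. The deposited Jund model is also 2878 bases long and begins 1210 bases upstream of the GENCODE model of 1668 bases. Over 1668 bases, the same reads would give 86.6 RPKM in the untreated against 119 RPKM in the cycloleucine library.

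Junb encodes JunB, a JUN protein that often restrains growth and takes part in lymphoid differentiation. It lies on the minus strand of chromosome 8, at 84976909 to 84978748. It had 1112 exon reads and 22.3 RPKM in the untreated library and 1659 reads and 28.2 RPKM in the cycloleucine library. The ratio was 1.27 (1.17 to 1.37), a log2 fold change of 0.34, with 7.61% of measured features at a larger value. Over 99% of its reads were uniquely placed (99.7% and 99.8%), and unique reads gave a ratio of 1.298.

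Jun encodes c-Jun, the AP-1 subunit activated by JNK phosphorylation, and is known to be switched on by its own product. It lies on the minus strand of chromosome 4, at 95049034 to 95052222. It had 1240 exon reads and 14.3 RPKM in the untreated library and 1593 reads and 15.6 RPKM in the cycloleucine library. The ratio was 1.09 (1.01 to 1.18), a log2 fold change of 0.12, so Jun was the nearest to its untreated level of the 3 JUN genes, and 26.4% of measured features had a larger value. Unique reads were 69.0% and 68.8% of its exon reads and gave a ratio of 1.11 (1.02 to 1.22). The antisense gene Junos overlaps 689 bases of Jun and was given 39 and 36 exon reads.

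**Figure D2:**
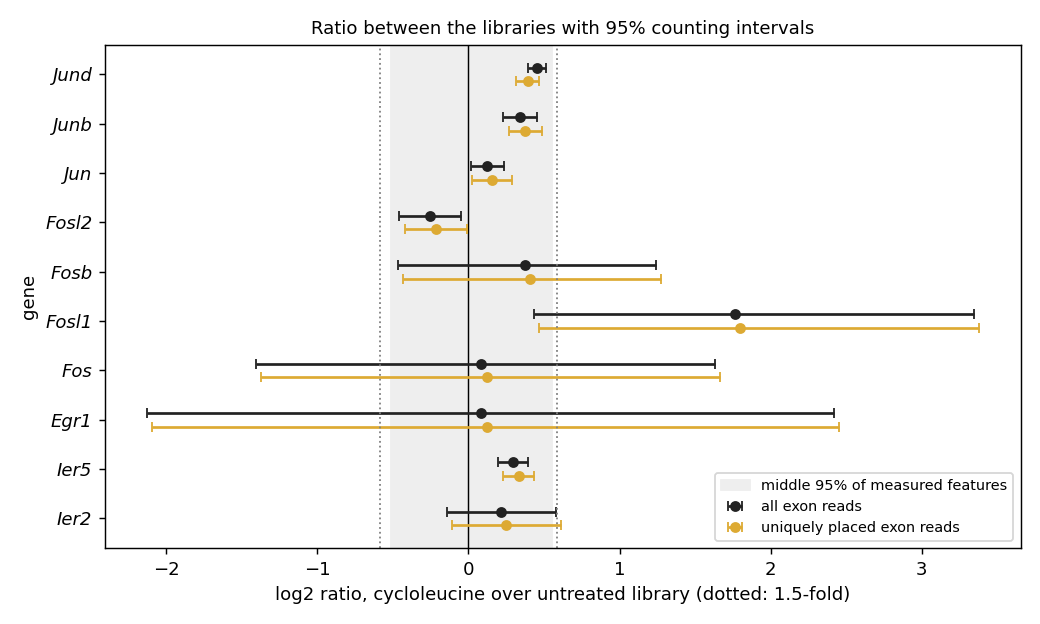
Log2 ratio of the cycloleucine over the untreated library for each gene, from all exon reads and from uniquely placed exon reads, with 95% counting intervals, the middle 95% of measured features in grey and 1.5-fold as dotted lines. Jund, Junb, Jun and Ier5 lie right of 0 with intervals that leave out 0, as does Fosl1 from few reads. Fosl2 lies left of 0, and the intervals of Ier2, Fos, Fosb and Egr1 span 0.

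The promoter stretches of 3 of the expressed genes with a ratio above 1, Jun, Junb and Ier5, are shown beside that of Fos, which was near the floor. That of Jund, the expressed gene with the highest ratio, is not shown. The stretches come from RefSeq (GRCm38.p6, the assembly of mm10) and end at the base before the annotated start of each gene. RefSeq windows from 250 bases before to 50 after the start were searched for 7 of the 10 genes. Fosl1 and Ier2 had no window, and Egr1 was left out of the search. Capitals mark TGACATCA and TTACCTCA (variants of the AP-1 and cAMP response element known as the binding sites of c-Jun in its own promoter), TGACG (the core of the cAMP response element), CCAAT boxes, printed as ATTGG where they lie on the other strand, and TATAAA. In Jun, the core TGACG had no match.
Jun, chr4:95052223-95052397, minus strand: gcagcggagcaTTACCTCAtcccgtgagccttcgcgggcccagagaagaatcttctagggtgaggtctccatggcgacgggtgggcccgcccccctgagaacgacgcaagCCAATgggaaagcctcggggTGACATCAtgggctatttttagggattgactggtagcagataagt
Junb, chr8:84978749-84978863, minus strand: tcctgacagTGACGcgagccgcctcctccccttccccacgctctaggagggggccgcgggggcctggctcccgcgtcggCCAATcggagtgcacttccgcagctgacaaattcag
Ier5, chr1:155099637-155099756, minus strand: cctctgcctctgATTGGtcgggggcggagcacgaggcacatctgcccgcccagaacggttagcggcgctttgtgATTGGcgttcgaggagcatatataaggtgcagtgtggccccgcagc
Fos, chr12:85473790-85473889, plus strand: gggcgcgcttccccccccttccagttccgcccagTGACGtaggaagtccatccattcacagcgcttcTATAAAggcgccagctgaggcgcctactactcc

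Positions are counted back from the start. In Jun, TTACCTCA lay at -164 to -157, CCAAT at -65 to -61 and TGACATCA at -45 to -38. Of 32851 RefSeq windows of this length, searched on both strands, 0.889% held TTACCTCA, 3.62% TGACATCA, 20.8% TGACG, 37.4% CCAAT and 13.6% TATAAA. The core TGACG also lies within TGACGTCA, so matches of both can overlap. TGACG matched in Junb at -106 to -102 and in Fos at -129 to -125, outside the printed stretch, and at -66 to -62. In Fosb, whose stretch is not shown, TGACG matched at -60 to -56. CCAAT matched in Junb at -36 to -32 and in Ier5 at -108 to -104 and -46 to -42. TATAAA matched in Fos at -33 to -28 and in Junb at 1 to 6, past the RefSeq start and outside the printed stretch. The GENCODE M21 start of Junb lies 30 bases downstream of the RefSeq start, so this Junb match lies upstream of the GENCODE start. TGACGTCA (1.79% of windows), TGAGTCA (5.2%) and the CArG box, to which SRF binds (1.63%), had no match in the 7 windows. Bases more than 250 before the start were not searched. The windows of Jund and Fosl2 had no match to any motif searched, which says only that these letters are not in them. Neither window holds the GENCODE M21 gene start. That start lies 1210 bases downstream of the RefSeq start in Jund and 671 bases upstream in Fosl2. Matches are descriptions of the sequence, and no binding was measured.

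The FOS family was carried by Fosl2, which encodes FRA2, a FOS-related protein without the strong activation domain of c-Fos. Fosl2 lies on the plus strand of chromosome 5, at 32136472 to 32157831. It had 401 exon reads and 2.52 RPKM in the untreated library and 396 reads and 2.12 RPKM in the cycloleucine library. It was the 1 expressed gene below its untreated level, with a ratio of 0.838 (0.728 to 0.966) and a log2 fold change of -0.24.

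Intron reads of Fosl2 numbered 44 in the untreated library and 68 after cycloleucine. Their ratio was 1.31 (0.885 to 1.96), an interval that includes 1. Exon-exon junction reads were 20 and 25, a ratio of 1.06 (0.566 to 2.02). Introns were 9.89% of its gene reads (exact binomial interval 7.28% to 13.0%) in the untreated and 14.7% (11.6% to 18.2%) in the cycloleucine library. With 0.5 added to each count, the ratio of intron to exon reads differed by 0.64 on the log2 scale. Of the 6803 annotated genes that had 100 or more intron reads and 200 or more exon reads in all, 96.0% lay below that value, and the middle 95% ran from -0.66 to 0.72.

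Fos, which encodes c-Fos, the classic serum-induced AP-1 subunit, lies on the plus strand of chromosome 12 at 85473890 to 85477273. It had 8 exon reads (0.125 RPKM) in the untreated and 10 (0.133 RPKM) in the cycloleucine library, with 2 and 1 intron reads and 0 and 1 junction reads. The ratio of 1.06 had an interval from 0.377 to 3.09. A change of up to that size was not detectable at this depth.

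Fosb, which encodes a close relative of c-Fos, lies on the minus strand of chromosome 7 at 19302721 to 19310045. It had 21 exon reads (0.206 RPKM) and 32 (0.267 RPKM), 12 intron reads in each library, and 3 and 2 junction reads. The ratio was 1.29 (0.723 to 2.36), and the interval includes 1.

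Fosl1 encodes FRA1, an AP-1 subunit that is often high in invasive cancer cells, and lies on the plus strand of chromosome 19 at 5447703 to 5455945. It had 6 exon reads (0.130 RPKM, 0.0476 to 0.282) in the untreated and 24 (0.440 RPKM, 0.282 to 0.655) in the cycloleucine library. The ratio was 3.40 (1.35 to 10.2), and the log2 fold change with 0.1 added was 1.23. Its 30 exon reads in all fell short of the 50 required of a measured feature, so Fosl1 is not among the counts above. Intron reads were 51 and 40, more than its exon reads in both libraries, and 0 junction reads were counted in either. Per kilobase, exons had 3.51 and introns 7.80 reads in the untreated library, and 14.1 and 6.12 in the cycloleucine library. The GENCODE M21 gene Ccdc85b, on the minus strand, overlaps the last 2766 bases of Fosl1, and 57.4% of the 50-base words of Fosl1 transcripts also occur in Ccdc85b transcripts on either strand. In the deposited table, where the Ccdc85b model starts 843 bases beyond Fosl1, Ccdc85b had 206 and 171 reads, a ratio of 0.705 (0.572 to 0.867). Reads of both genes cannot be told apart where they overlap, without the use of strand.

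**Figure D3:**
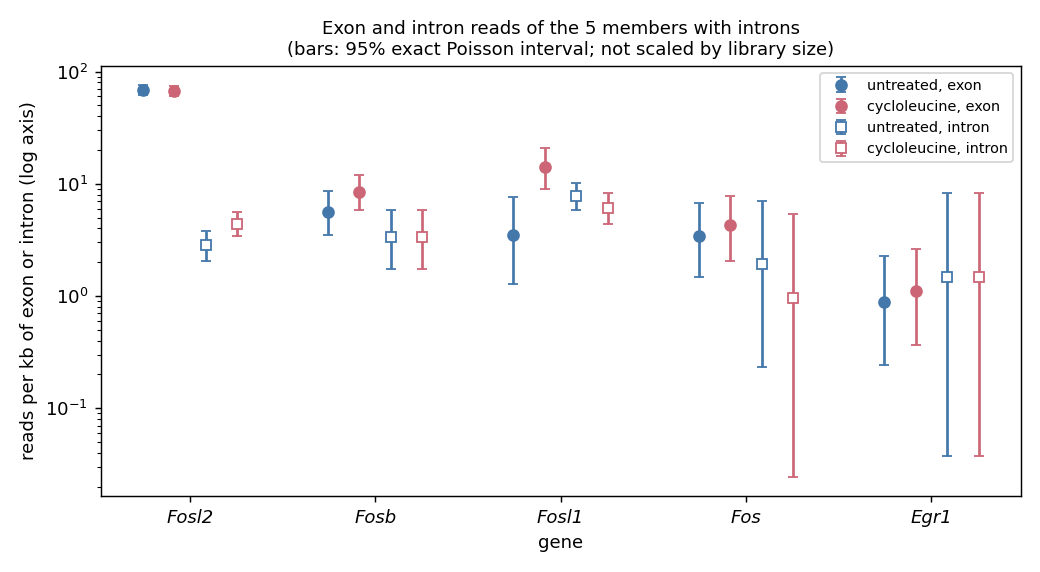
Exon reads (filled circles) and intron reads (open squares) per kilobase on a log axis for the 5 genes with introns, by library, with 95% exact Poisson intervals and without scaling by library size. Exon reads stand above intron reads in Fosl2 in both libraries, while in Fosl1 the untreated intron density of 7.80 reads per kilobase is above the exon density of 3.51.

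Messages of this class often carry AU-rich elements in the 3' untranslated region, through which ZFP36 and related proteins shorten their life. In the GENCODE M21 transcript with the longest coding sequence, 9 of the 10 genes held the pentamer ATTTA there, and Ier2 held none. Over 8334 measured genes the share was 65.9%, in regions of differing length. Per kilobase, Fos had 4.91 pentamers, Junb 4.12 and Jun 3.24, with 93.2%, 89.7% and 82.4% of measured genes below them, while Jund had 1.88, Fosl2 1.72, Egr1 1.64, Fosl1 1.57, Ier5 0.933 and Fosb 0.466. The nonamer TTATTTATT, which holds the pentamer, was found in 2 of the 10, Fos and Fosl2, and in 7.12% of measured genes. Both sites are shown, the nonamer in capitals, since the line expressed Fosl2 and Fos lay below the expression bound.
Fos, chr12:85477103-85477131, plus strand: tgttttcaatTTATTTATTaagatggatt
Fosl2, chr5:32156871-32156899, plus strand: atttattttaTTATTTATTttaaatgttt

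Egr1, on chromosome 18 at 34859823 to 34864984, encodes a zinc finger factor that follows B cell receptor and growth factor signals. It had 4 exon reads (0.0329 RPKM, 0.00896 to 0.0842) in the untreated and 5 (0.0349 RPKM, 0.0113 to 0.0814) in the cycloleucine library, with 1 intron read and no junction read in each. It was the lowest of the 10 genes in both libraries. The interval of its ratio, 0.228 to 5.35, shows that no change within that range was detectable.

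Ier5 encodes a regulator of the heat shock factor HSF1 and of growth. It is intronless and lies on the minus strand of chromosome 1, at 155096361 to 155099636. It had 1334 exon reads and 15.0 RPKM in the untreated library and 1928 reads and 18.4 RPKM in the cycloleucine library. The ratio was 1.23 (1.14 to 1.32), a log2 fold change of 0.29, with 9.82% of measured features at a larger value, and 99.2% and 99.3% of its reads were unique.

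Ier2, an intronless gene for a nuclear protein of the early response, lies on the minus strand of chromosome 8 at 84661331 to 84662852. It had 114 exon reads and 2.76 RPKM in the untreated library and 156 reads and 3.21 RPKM in the cycloleucine library. The ratio was 1.16 (0.907 to 1.49), a log2 fold change of 0.21, and the interval includes 1.

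All 5 expressed intronless genes (Jund, Junb, Jun, Ier5 and Ier2) were thus on the higher side, with a median log2 fold change of 0.29. The interval of the Ier2 ratio, 0.907 to 1.49, includes 1, and the median of the housekeeping controls was 0.17. Over 211 measured intronless annotated features the median was -0.02, with 48.8% above 0 and 7.11% at least 1.5-fold higher.

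**Figure D4:**
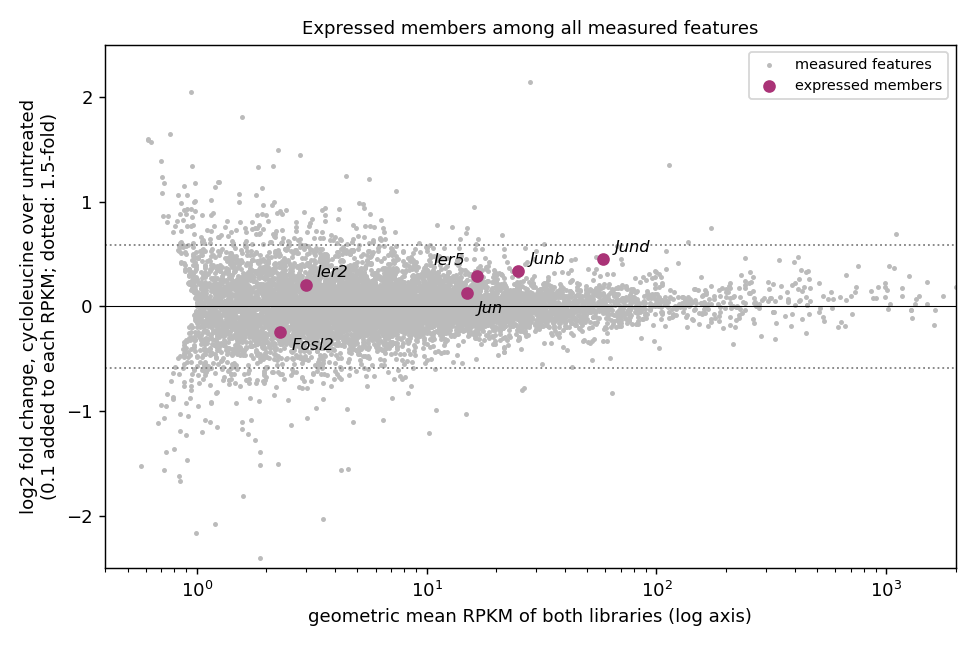
Log2 fold change, with 0.1 added to each RPKM, against the geometric mean RPKM of both libraries on a log axis for the measured features in grey and the 6 expressed genes in purple, with 1.5-fold as dotted lines; 9 features lie outside the axes. The 6 genes lie between -0.24 and 0.45, and Jund lies highest.

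Genes that work with these factors were taken from lists written by function. Among 13 further leucine zipper factors that can pair with JUN or FOS, 4 were measured, 3 above and 1 below 0, and none reached 1.5-fold. Atf2, a partner of c-Jun, had a log2 fold change of 0.23, Jdp2, a JUN dimerization repressor, 0.38, Mafg 0.16 and Mafk, a small MAF protein, -0.27. Atf3 had 0 and 2 reads and Batf 2 and 3. Of 7 EGR and IER relatives 2 were measured, Ier5l at 0.27 and the EGR co-repressor Nab1 at -0.07, while Egr2 had 10 and 8 reads, Egr3 0 and 1, and Ier3 19 and 13.

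Upstream, 5 of 7 SRF, ternary complex and related factors were measured, 2 above and 3 below 0, with none past 1.5-fold and a median of -0.06. Srf, which binds serum response elements, had 2.75 and 3.91 RPKM and a log2 fold change of 0.49, with 44.6% of its untreated reads unique. Its partners Elk4 and Elk1 were at 0.16 and -0.27, and the coactivator Mkl1 at -0.13. All 14 genes of the MAP kinase route were measured, 8 above and 6 below 0, with none past 1.5-fold and a median of 0.02. The ERK1 gene Mapk3 was at -0.36, the S6 kinase gene Rps6ka1 at -0.29, the JNK2 gene Mapk9 at -0.24 and Rps6ka5, for the MSK1 kinase, at 0.26.

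Downstream, 5 of 6 AU-rich element binding factors were measured, 1 above and 4 below 0. Zfp36, itself an immediate early gene, had 123 and 280 exon reads and a log2 fold change of 0.92, the 1 of the 5 past 1.5-fold, while Hnrnpd was at -0.40, Elavl1 at -0.14 and Khsrp at -0.10. Of the 5 genes for turnover of JUN and FOS protein found in the table, all were measured, and 4 were above and 1 below 0. Det1, of a ubiquitin ligase complex for c-Jun, was at 0.52, Gsk3b at 0.11, and Fbxw7 at 0.01 and Itch at -0.01. Of 17 AP-1 target genes 4 were measured: the BIM gene Bcl2l11 at 0.26, Gclc of glutathione synthesis at 0.23, Hmox1 at 0.13 and the adhesion receptor Cd44 at -0.01.

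Immediate early genes of other families had 15 of 31 measured, 12 above and 3 below 0, with a median of 0.22 (0.36 from uniquely placed reads), and 2 were at least 1.5-fold higher, Zfp36 and Dusp1 (0.68). The next largest changes were those of Rhob (0.53) and Id2 (0.51). Over all measured features 2.16% were at least 1.5-fold higher. This list and the 10 genes were chosen with results of these libraries already known, and its direction is not independent evidence of theirs.

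**Figure D5:**
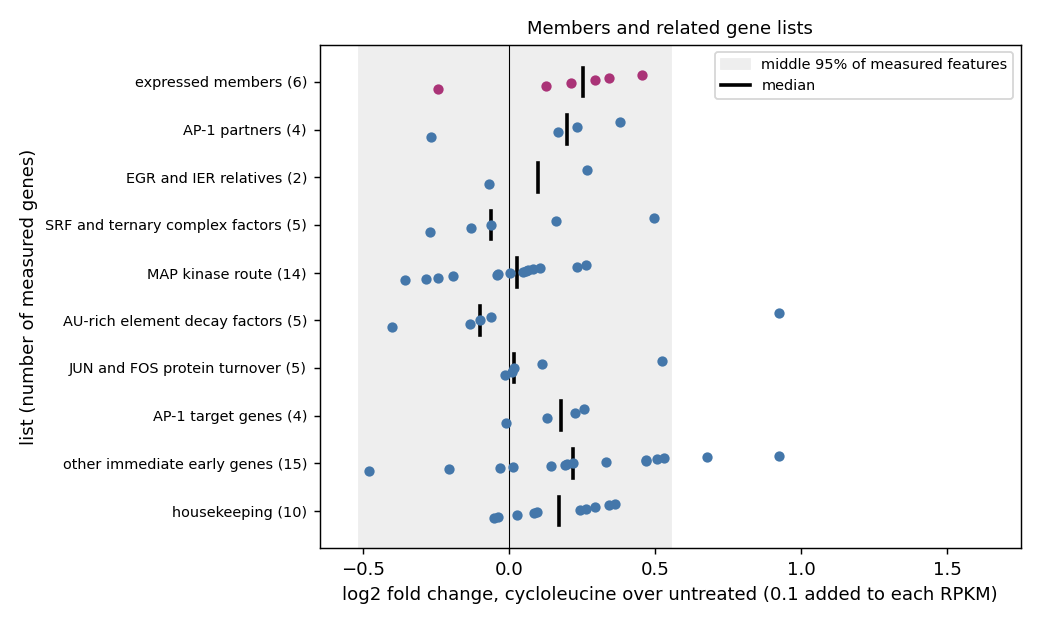
Log2 fold change, with 0.1 added to each RPKM, of each measured gene of the 6 expressed genes, 8 related lists and the housekeeping controls, with the median of each list as a bar and the middle 95% of measured features in grey. Zfp36 at 0.92, which is in 2 lists, and Dusp1 at 0.68 lie right of the grey band, and the housekeeping median is 0.17.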

How the data were processed

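RNA-seq libraries of untreated and cycloleucine-treated X63/0 cells, 1 each, were compared. The authors deposited read counts per gene for exons, introns and exon-exon junctions, total and uniquely placed, per the file headers. They also deposited RPKM values, which equalled exon reads scaled by exon length and gene reads in 29646 of 29646 annotated features of each library, within a share of 1e-04. Per the submitters' processing notes, reads were placed on mm10. Aligner, counter, annotation release and use of strand: not given in the sources used here. No column belonged to another library (0), and 6 summary columns were left unused.

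Log2 fold changes used RPKM plus 0.1. Measured features, 9101 in all, had 50 or more exon reads over both libraries and 1 RPKM or more in either. With 1 library per group no test was made. Ratios carry 95% intervals, from the exact Clopper-Pearson bounds on the share of reads in the cycloleucine library, scaled by gene reads. Those of single counts are exact Poisson intervals. Reads were made by PCR and carry no molecular identifiers, so they are not independent molecules. A count of 0 allows up to 3 counts, 0.111 RPKM for 1 kb of exon in the untreated and 0.0939 RPKM in the cycloleucine library. Named genes were the 10 genes, up to 4 measured genes of each list with the largest change, and genes overlapping the 10; others were named after their values were seen. The members and lists were chosen with earlier results of these data known. The fold and interval computation was tested on simulated data. Python 3.11.15, scipy 1.17.1 and edgeR 4.0.16 (trimmed mean of M-values scaling alone) were used. The alternatives tried were a pseudocount of 1 or none, unique reads, 2 scalings and 3 filters.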

Additional observations from a re-analysis of the deposited data

How the results depend on the processing

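No paired analysis was possible because there was only 1 library on each side. The 5 alternatives of scale, pseudocount and read placement gave 50 values for the 10 genes, of which 48 stayed within the counting interval and none changed sign. The log2 fold change of Jund was 0.39 from uniquely placed reads, and that of Fosl1 0.35 with a pseudocount of 1, which weighs more on low genes. With no filter all 10 genes entered, 9 lay above 0, and 1, Fosl1, was both at least 1.5-fold and at least 2-fold higher, since genes with few reads are then counted. With an RPKM of at least 5, 4 genes were expressed and all 4 lay above 0, since Fosl2 and Ier2 dropped out. The counts below 0 and of intervals were not recomputed. Of 72 list medians 70 stayed within the interval of their middle genes. With an RPKM of at least 5, the median of the SRF list was 0.16 in place of -0.06 and that of the protein turnover list 0.27 in place of 0.01, and with at least 200 reads that of the housekeeping controls was 0.093. Unique reads shifted the median of all measured features by 0.03 and scaling by exon reads by -0.03, which put the medians of the MAP kinase and turnover lists just below 0 (-0.0046 and -0.014). Depth limits Fos, Fosb, Fosl1 and Egr1, and the intron share of Fos rested on 3 intron reads.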

Other observations

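Plaur, the urokinase receptor gene and a listed AP-1 target too low to measure, had 0 exon reads in untreated cells and 11 after cycloleucine. Il6 had 0 and 6. The lower bound of the ratio was 2.13 for Plaur and 0.9997 for Il6, so the interval of Il6 includes 1. Intron reads were present in both libraries, 13 and 18 for Plaur and 19 and 16 for Il6. Maff, a small MAF gene, had 17 and 39 exon reads, a ratio of 1.95 (1.08 to 3.67), Dusp6, a phosphatase of ERK, 22 and 53 (2.05, 1.22 to 3.53), and Btg1, an antiproliferative gene, 53 and 105 (1.68, 1.20 to 2.39). These genes were named after their values were seen, and each was under an RPKM of 1 in both libraries. Among the measured immediate early genes of other families, Btg2 had 15415 and 25088 exon reads, a ratio of 1.38 (1.35 to 1.41). Mcl1 had 4380 and 7145, a ratio of 1.38 (1.33 to 1.44), and both ratios were close to the 1.37 of Jund. Of these 15 measured genes, 9 had intervals wholly above 1, as did 22.5% of all measured features. Intervals wholly below 1 were found for 2 of the 15, Myc and Id1, and for 21.1% of all measured features. Myc, which drives cell growth, had 15679 and 16005 reads, giving a ratio of 0.867 (0.848 to 0.886), and Id1 had 205 and 172 reads and a ratio of 0.712 (0.578 to 0.877).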
